A study of Mus musculus with 109 samples.

Results

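The 9 genes described here act around the Notch receptors in single cells of a granule cell precursor preparation from the P7 mouse cerebellum. They were chosen by their symbols, which were Hey1, Numb, Numbl, Rbpj, Dner, Lfng, Mfng, Maml1 and Adam10, and all 9 were listed among the 15973 genes of the count table. The 109 cells were labelled as C57BL/6 at postnatal day 7, while the general animal methods of the study name ICR pups, so the strain is given as labelled. The cells were enriched on a Percoll gradient and isolated individually on a C1 Fluidigm system, and the labels named no allele or treatment, so every group below is a division of the same untreated cells. The titles placed the cells in 6 library groups of 18 or 19 cells, and neither the number of mice nor the link between library groups and mice was given. Each gene's reads were set against the total of its cell and are given as counts per 1000000 counts (CPM).

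In the Notch pathway, a ligand on one cell binds a Notch receptor on a neighbour, ADAM10 cuts the bound receptor outside the membrane, and a second cut frees its intracellular part. That part enters the nucleus and joins the DNA-binding protein RBPJ and a Mastermind coactivator such as MAML1, and genes of the Hes and Hey families are switched on. Fringe enzymes such as LFNG and MFNG add sugars that change which ligands a receptor answers to, NUMB and NUMBL counteract the receptor inside the cell, and DNER is a neuronal membrane protein that has been described as a Notch ligand. In the external granule layer, Notch activity is known for keeping granule cell progenitors (GCPs) immature.

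The question asked of these genes was whether they differed between cells with high and low Mki67, and between cells with and without Notch2, the receptor that the study classified cells by. The study made its split only within its GCP cluster, by any Notch2 expression against none. Here cells of the whole preparation were used with a minimum of 5 counts, so the comparison is not the same. Mki67, a gene of dividing cells, was at 100 CPM or more in 32 cells (Mki67 high) and under 10 CPM in 75 cells (Mki67 low), and 2 cells lay between. Mki67 low does not by itself mean outside the cell cycle. Of the Mki67 low cells, 49.3% had 5 or more counts of Top2a, 44% of Pcna, 98.7% of Ccnd2 and 18.7% of Mki67 itself. On counts thinned as described below, the value for Mki67 was 4%. Cdk1 and Ccnb1, also genes of the cell cycle, had 5 or more counts in 2.67% and 8% of Mki67 low cells. In Mki67 high cells each had them in 65.6%. How many Mki67 low cells were cycling was not tested. The nearest cells lay at 9.27 CPM below and at 132 CPM above the Mki67 limits. Notch2 had at least 5 counts in 36 cells (Notch2 counted) and none in 64 cells (Notch2 none), and 9 cells had 1 to 4 counts. The nearest cells had 3 counts below and 7 counts above the limit of 5. The divisions shared cells, since 19 of the 32 Mki67 high cells and 16 of the 75 Mki67 low cells were Notch2 counted, so their results are not independent of each other.

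Total counts ran from 15071 to 8616017 per cell, and 1 cell had fewer than 100000. Of 10 granule lineage genes, 5 were counted at least 5 times in 99 to 109 cells (Neurod1, Dcx, Zic1, Meis1 and Pax6). Cntn2 was so counted in 84 cells, Rbfox3 in 78, Zic2 in 66, Barhl1 in 48 and Atoh1, a gene of the progenitors, in 11. At least 5 of 10 astroglial markers were at 50 CPM or more in 5 cells, of which 3 were Mki67 high, 2 were Mki67 low and all 5 were Notch2 counted. The summed CPM of the 10 astroglial markers ranged from 0.399 to 23422 (median 142) in Mki67 high cells and from 0.116 to 41197 (median 50.1) in Mki67 low cells, and from 0.559 to 41197 in Notch2 counted cells and from 0.116 to 5180 in Notch2 none cells. Each of 4 microglial markers (Cx3cr1, P2ry12, Csf1r and C1qa) had 5 or more counts in 9.38% to 12.5% of Mki67 high and 0% to 1.33% of Mki67 low cells, and in 8.33% to 11.1% of Notch2 counted and 0% to 1.56% of Notch2 none cells. Pdgfra, a marker of oligodendrocyte precursors, had them in 53.1% of Mki67 high and 36% of Mki67 low cells. The number of detected genes was also unequal, with a median of 4968 in Mki67 high against 4193 in Mki67 low cells, and of 4922 in Notch2 counted against 4157 in Notch2 none cells. It was higher on the log2 scale in 6 of 6 library groups in both divisions (exact two-sided sign-flip permutation test, p = 0.031, the smallest that 6 groups allow). The part of these differences in the results below was not tested, and the shares of Hey1 and Rbpj are also given without the astroglial cells, without the 3 cells of unusual depth, or on counts thinned to 1110182 per cell.

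Because RBPJ is the DNA-binding protein of the pathway, promoter windows from 250 bases before to 50 bases after the start site (RefSeq, GRCm38.p6) were searched on both strands for TGGGAA, the core of its recognition sequence, and for CGTGGGAA, a longer form that holds the core. There were 10 windows for 7 of the 9 genes. No window was available for Hey1 and Mfng, so their promoters were not searched. The core was in 8397 of 32851 mouse promoter windows (25.6%) and the longer form in 241 (0.734%). Among the 7 genes, windows of Rbpj and Lfng held the core and that of Lfng also held the longer form, and it is shown for that reason. In the stretch of 57 bases at chr5:140607194-140607250 on the plus strand, upstream of the annotated start of Lfng, capitals mark the core on the minus strand and the longer form on the plus strand.
Lfng: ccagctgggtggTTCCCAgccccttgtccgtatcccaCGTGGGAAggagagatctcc
A match describes letters only, and binding was not measured.

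The 9 genes were present very unevenly from cell to cell. At least 5 counts of Adam10 were found in 83 of 109 cells (76.1%, Wilson 95% interval 67.3 to 83.2, counting error only), and of Numbl in 63 cells (57.8%, 48.4 to 66.7). Rbpj and Dner each had 5 or more counts in 35 cells (32.1%, 24.1 to 41.4). The remaining genes were counted at that level in 20 cells for Numb, 16 for Hey1, 12 for Maml1, 8 for Mfng and 5 for Lfng. A cell held a median of 2 of the 9 genes at 5 or more counts, and the range was 0 to 8.

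Single cells carried much of each gene's signal. The highest cell held 90.9% of the CPM summed over all cells for Lfng, 56.9% for Maml1, 53.5% for Hey1, 50.9% for Mfng and 36.5% for Numb. The share was smaller for Rbpj (26.4%), Numbl (23.5%), Dner (13.5%) and Adam10 (10.3%). A mean or a sum of these genes can therefore rest on 1 cell, and shares of cells are given beside each.

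Per kilobase of exon sequence, Adam10 had the highest mean level at 122 ± 86.5 CPM per kilobase (SD over 6 library groups), followed by Dner at 48.4 ± 33.2. Hey1 (21.2 ± 24.7), Mfng (13.7 ± 20) and Numb (12.7 ± 12.9) came next on the same scale. Numbl (3.39 ± 2.56), Maml1 (3.30 ± 4.98), Rbpj (1.88 ± 1.47) and Lfng (0.479 ± 1.05) were lower. Only the last pair of neighbours in this order, Rbpj above Lfng, was ordered alike in 6 of 6 library groups (exact sign-flip permutation test, p = 0.031, unadjusted over 8 pairs). For the other 7 pairs of neighbours p lay between 0.0625 and 0.938 in the same exact test, so their order was not separated by the spread between library groups.

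**Figure D1:**
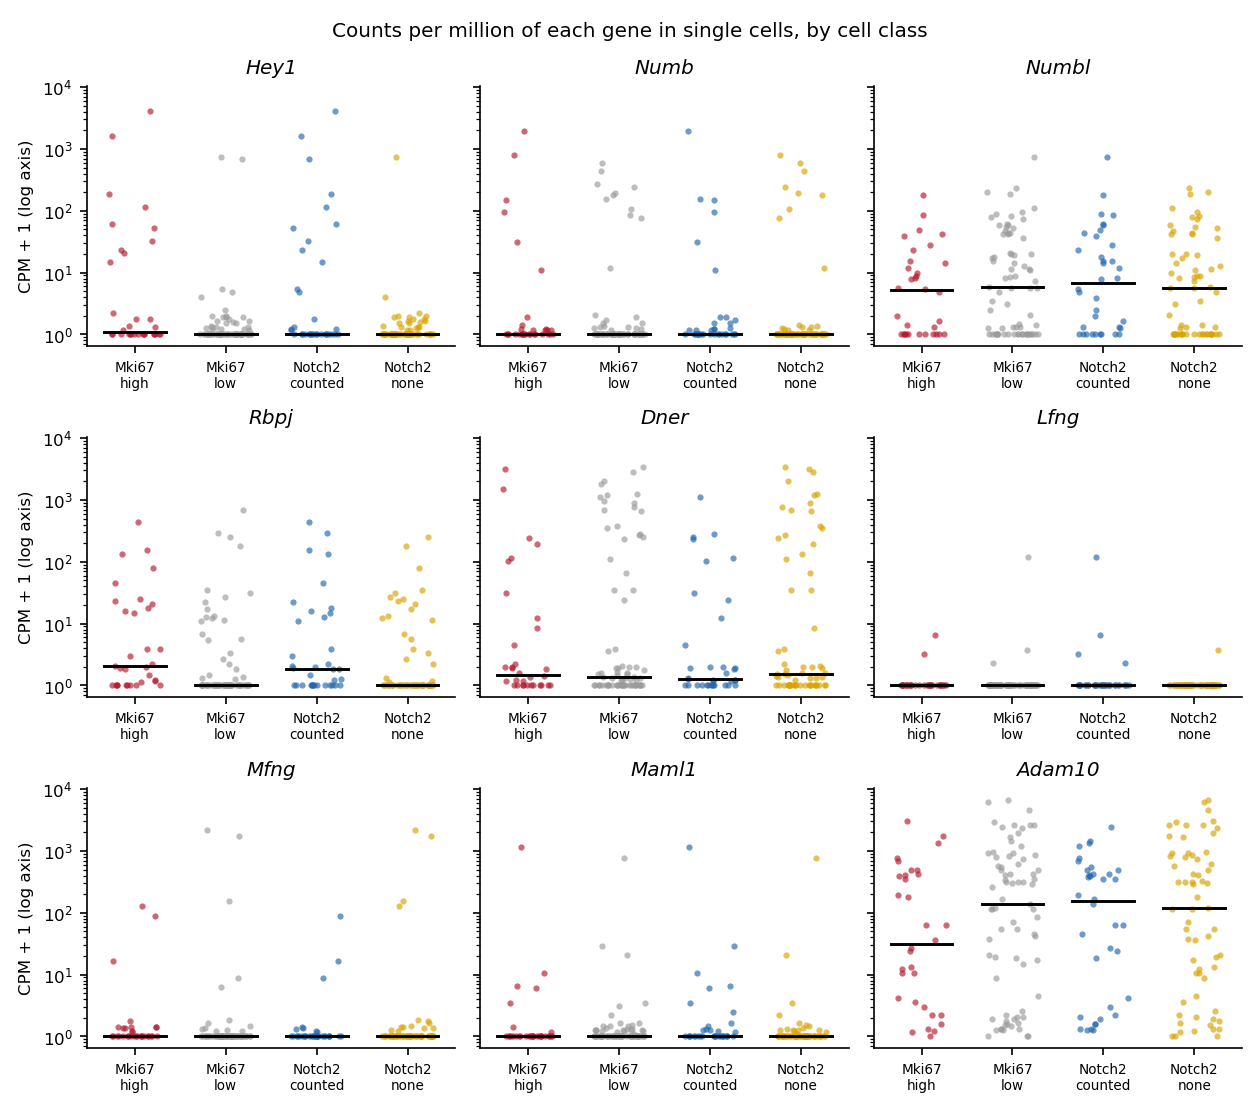
CPM + 1 of each of the 9 genes in single cells (points, log axis) in the Mki67 high, Mki67 low, Notch2 counted and Notch2 none classes, with black lines at the medians. Hey1 lay at 100 CPM or more in 4 of 32 Mki67 high and 2 of 75 Mki67 low cells, while Adam10 reached 2398 CPM or more in every class.

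For each library group the counts of all cells of a class were added up, and the sums were compared across all genes with edgeR's quasi-likelihood test, calling genes at a Benjamini-Hochberg adjusted p under 0.01. Between Mki67 high and Mki67 low cells, 9084 genes were tested, and 2 were called higher (0.022%) and 0 lower (0%). Those called were Tacc3 and Cdc20, genes of the mitotic spindle and of mitotic exit, with log2 fold changes of 9.88 ± 1.13 (SE) and 11.08 ± 1.5. Of the 9 genes 8 were tested and 0 were called, and 4 had a log2 fold change above 0 beside 45.2% of all genes tested. Their median log2 fold change was -0.14, and that of all genes was -0.18. Between Notch2 counted and Notch2 none cells, 8797 genes were tested and 0 were called higher (0%) or lower (0%), while 483 had an unadjusted p under 0.05. Of the 9 genes 7 were tested and 0 were called, and 5 had a log2 fold change above 0 beside 47.3% of all genes tested. DESeq2 on the same sums called 376 genes in the first comparison and 337 in the second, and again 0 of the 9 genes. The biological coefficient of variation between sums was 172% in each. At an unadjusted p under 0.05, 0 of the 8 genes tested were higher (2.94% of all genes) and 0 lower (4.39%) in Mki67 high cells. In Notch2 counted cells 0 of 7 were higher (2.57%) and 1 of 7, Adam10, was lower (2.92%).

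The shares of cells with 5 or more counts and the means of log2(CPM + 1) over cells were also compared within library groups, for every gene. With 6 library groups these exact sign-flip tests allow no p under 0.031, and since about 5% of genes reached it, an adjusted p of 0.05 was out of reach for every gene. The adjusted values therefore say nothing for or against a single gene. The smallest adjusted p over all genes was 0.531 for shares and 0.564 for means. Both measures leaned to the classes with more detected genes. The mean difference in share was above 0 for 80.4% of genes between Mki67 high and low cells and for 83.1% between Notch2 counted and none cells, and among the 9 genes for 5 and 7. For log2(CPM + 1) it was above 0 for 71.6% and 74% of genes, and for 4 and 5 of the 9. Whether a gene was ordered alike in all 6 library groups was also counted. By share, 1 of the 9 genes, Rbpj, was higher in Mki67 high cells in 6 of 6 library groups (5.02% of all genes) and 0 were lower (0.199%), and by Notch2 0 were higher (4.9%) and 0 lower (0.145%). By mean log2(CPM + 1), 0 of the 9 were higher (4.78%) or lower (0.758%) in 6 of 6 for Mki67, and 0 were higher (4.06%) or lower (0.363%) for Notch2. Apart from the share of Rbpj by Mki67, each of the 9 genes thus had a library group that did not follow its mean, Rbpj included in the other comparisons. For Hey1 this was library group 4 alone, which gave no difference, and 0 groups went against its mean.

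**Figure D2:**
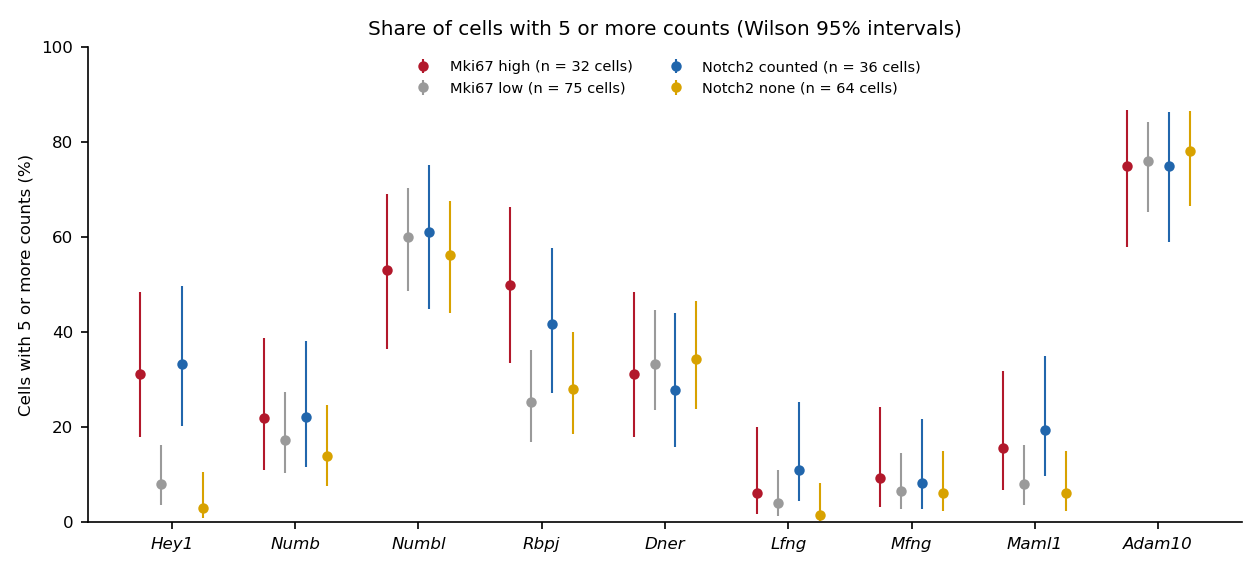
Percent of cells with 5 or more counts of each gene in the 4 classes, with Wilson 95% intervals that cover counting error only. The intervals of Hey1 lie apart in both divisions, and those of the other 8 genes overlap. How many of all genes had intervals apart was not counted. Within library groups, the share differed at least as far above 0 as for Hey1 in 8.86% (Mki67) and 1.52% (Notch2) of all genes. For Hey1 the exact sign-flip test over library groups gave p = 0.0625 in each division.

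Hey1, a transcriptional repressor and classical Notch target, was found in a larger share of Mki67 high and of Notch2 counted cells. It had 5 or more counts in 10 of 32 Mki67 high cells (31.2%, Wilson 95% interval 18 to 48.6) and in 6 of 75 Mki67 low cells (8%, 3.72 to 16.4). In the Mki67 high cells that had it, the CPM ran from 14.1 to 4120 with a median of 55.4, and in the Mki67 low cells from 1.51 to 741 with a median of 4.21. Its share was higher in Mki67 high cells in 5 of the 6 library groups, by 43.3 percentage points in library group 1, 16.7 in group 2, 25 in group 3, 5 in group 5 and 44.6 in group 6. Library group 4 held no Hey1 count in any of its 18 cells and gave no difference. The mean difference was 22.4 ± 18.9 points (SD, n = 6; exact sign-flip permutation test, p = 0.0625, adjusted p = 0.558), and 8.86% of all genes had a difference at least as far above 0. Without the astroglial cells it was 17 points, without the cells of unusual depth 19, and in thinned cells 26.8. The mean of log2(CPM + 1) differed by 1.77 ± 1.53 (SD, n = 6; exact p = 0.0625), and 4.48% of all genes lay at least as far above 0.

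The same gene was compared between cells with and without Notch2. In all, 12 of 36 Notch2 counted cells (33.3%, 20.2 to 49.7) and 2 of 64 Notch2 none cells (3.12%, 0.861 to 10.7) had 5 or more Hey1 counts. The difference was 50 percentage points in library group 1, 11.7 in group 2, 33.3 in group 3, 52.3 in group 5 and 44.4 in group 6, and again 0 in group 4. Its mean was 32.0 ± 21.6 points (SD, n = 6; exact sign-flip permutation test, p = 0.0625, adjusted p = 0.531), and 1.52% of all genes lay at least as far above 0. With library group 4 at 0 in both classes, 0.0625 is the smallest p that the other 5 groups allow. The difference was 28.6 points without the astroglial cells, 28.5 without the cells of unusual depth, 30.0 in thinned cells and 28.1 with cells of 1 to 4 Notch2 counts taken as counted. In the mean of log2(CPM + 1) it was 1.93 ± 1.17 (SD, n = 6; exact p = 0.0625), and 2.2% of all genes lay at least as far above 0.

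In sums per library group, Hey1 lay between 0 and 846 CPM in Notch2 counted cells (median 89.4) and between 0 and 53.4 CPM in Notch2 none cells (median 0.295). The Notch2 counted sum was the higher one in 4 library groups and the lower one in group 5, where 1 cell of 741 CPM had no Notch2 count. Between sums the log2 fold change was 4.71 ± 2.24 (SE; edgeR adjusted p = 0.902) between Notch2 counted and none cells, and 3.35 ± 2.05 (adjusted p = 0.754) between Mki67 high and low cells. Without the highest cell, at 4120 CPM, these were 2.5 and 1.34. The first was 10.23 without library group 5 and 2.63 without library group 1. The second was 10.27 with Mki67 of at least 5 counts against none (edgeR adjusted p = 0.0976, the lowest of the 9 genes in any setting). Only 18 cells had no Mki67 count, and library group 3 held no such cell. In Mki67 high sums Hey1 ranged from 0 to 974 CPM (median 48.5) and in Mki67 low sums from 0 to 93.2 (median 0.616), so the sums overlapped in both divisions. By Mki67 the Hey1 sum was the higher one in 3 library groups and the lower one in 2, at 7.04 against 72.6 CPM in group 5 and 82.1 against 93.2 CPM in group 6.

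Within the Mki67 high cells, 9 of 19 Notch2 counted cells had 5 or more Hey1 counts (47.4%, 27.3 to 68.3). Of the 12 Mki67 high cells with no Notch2 count, 0 had them, which allows a share of up to 25%, and their highest Hey1 level was 1.26 CPM. In Mki67 low cells the shares were 3 of 16 Notch2 counted cells (18.8%, 6.59 to 43.0) and 2 of 51 Notch2 none cells (3.92%, 1.08 to 13.2). The difference in mean log2(CPM + 1) between Notch2 counted and none cells was 3.98 in Mki67 high cells over the 5 library groups that held both, and 0.557 in Mki67 low cells over 6. The test of the difference between these gave 3.32 over the 5 groups in common (exact sign-flip permutation test, p = 0.0625, adjusted p = 0.819). Having Notch2 did not mean having Hey1, since 24 of the 36 Notch2 counted cells had fewer than 5 Hey1 counts.

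**Figure D3:**
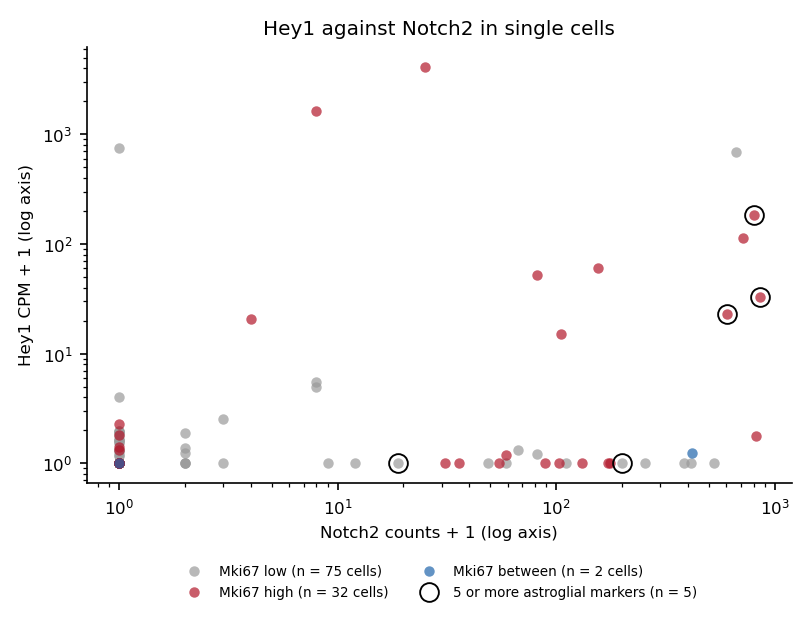
Hey1 CPM + 1 against Notch2 counts + 1 in single cells (both axes logarithmic), coloured by Mki67 class, with rings around the 5 cells that had 5 or more of 10 astroglial markers at 50 CPM or more. The 2 cells with the highest Hey1, at 4120 and 1623 CPM, had 24 and 7 Notch2 counts, and 3 of the 5 ringed cells had Hey1.

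Rbpj, the DNA-binding protein of the pathway, was counted more often in Mki67 high cells. At least 5 counts were found in 16 of 32 Mki67 high cells (50%, 33.6 to 66.4) and in 19 of 75 Mki67 low cells (25.3%, 16.9 to 36.2). The share was higher in 6 of 6 library groups, by 11.7, 8.33, 7.5, 26.7, 22.5 and 64.6 percentage points in groups 1 to 6, which 5.02% of all genes also did. The mean difference was 23.5 ± 21.6 points (SD, n = 6; exact sign-flip permutation test, p = 0.031, adjusted p = 0.558). It was 19.6 points without the astroglial cells and 21.2 without the cells of unusual depth (p = 0.0625 in each exact test), and 12.3 points in thinned cells (exact p = 0.125). With Mki67 classes of at least 5 counts against none, where only 18 cells had none, it was 14.3 points (exact p = 0.625). Without library group 6 it was 15.3.

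The level of Rbpj did not separate the classes in the sums. It ran from 3.82 to 141 CPM in Mki67 high sums (median 21.2) and from 1.18 to 55.1 CPM in Mki67 low sums (median 12.3), which overlapped. Their log2 fold change was 0.72 ± 1.45 (SE; edgeR adjusted p = 0.935). The highest cell, at 684 CPM, was Mki67 low, and without it the log2 fold change was 1.48. Over cells, the mean of log2(CPM + 1) was higher in Mki67 high cells by 1.09 ± 1.2 (SD, n = 6, exact sign-flip permutation test, p = 0.0625). This mean was higher in 5 of 6 library groups, and 71.6% of all genes had a mean difference above 0. Between Notch2 counted and none cells, Rbpj was at 5 or more counts in 15 of 36 (41.7%, 27.1 to 57.8) and 18 of 64 cells (28.1%, 18.6 to 40.1), with a mean difference of 12.2 ± 35.6 points (SD, n = 6; exact p = 0.438). It was 1.36 points without library group 6 and 6.38 without library group 5.

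Maml1, the Mastermind coactivator that bridges RBPJ and the intracellular part of the receptor to the transcription machinery, rested on 2 cells. One Mki67 high, Notch2 counted cell of library group 4 held 1143 CPM and one Mki67 low, Notch2 none cell of group 1 held 779.8 CPM, while the next highest cell held 28.5 CPM. The same cell of group 4 had the second highest Rbpj level, at 435 CPM. At least 5 Maml1 counts were found in 5 of 32 Mki67 high and 6 of 75 Mki67 low cells, and in 7 of 36 Notch2 counted and 4 of 64 Notch2 none cells. Between Mki67 high and low cells its log2 fold change was 3.7 ± 2.43 (SE; edgeR adjusted p = 0.763) and became -3.47 without the highest cell. Between Notch2 counted and none cells it was 2.09 ± 2.31 (adjusted p = 0.95) and became -2.65, so that no direction could be given for this gene.

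Adam10, the protease that makes the first cut after ligand binding, was counted in similar shares of the 4 classes. Shares of cells with 5 or more counts were 75% of Mki67 high and 76% of Mki67 low cells, and 75% of Notch2 counted and 78.1% of Notch2 none cells. The median per cell was 30.3 CPM in Mki67 high and 139.6 CPM in Mki67 low cells. Sums ran from 4.48 to 586 CPM (median 254) in Mki67 high cells and from 129 to 1656 CPM (median 641) in Mki67 low cells, and the sum of Mki67 high cells was the lower one in 4 of 6 library groups. With edgeR the log2 fold change was -1.46 ± 0.82 (SE; edgeR adjusted p = 0.725).

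Between the Notch2 classes, Adam10 sums ran from 86.5 to 631 CPM (median 312) in Notch2 counted cells and from 90.9 to 1915 CPM (median 821) in Notch2 none cells. They overlapped, although the Notch2 counted sum was the lower one in 5 of 6 library groups. Here the log2 fold change was -1.45 ± 0.64 (SE; edgeR p = 0.0381, adjusted p = 0.901), where 2.92% of all genes had an unadjusted p under 0.05 in this direction. The medians per cell went the other way, at 153 CPM in Notch2 counted and 117 CPM in Notch2 none cells. In the mean of log2(CPM + 1), the difference was -0.69 ± 2.37 (SD, n = 6; exact p = 0.438).

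Lfng and Mfng, the Fringe enzymes, were the genes with the fewest cells. Lfng had 5 or more counts in 5 cells and 1 to 4 counts in 0, and its CPM in those 5 cells was 118, 5.57, 2.75, 2.20 and 1.30. Of these 5 cells 3 were cells with 5 or more astroglial markers, the one at 118 CPM included. By Notch2, 4 were Notch2 counted and 1 was Notch2 none, and without the astroglial cells 2 cells with Lfng remained. Lfng was too low to be tested by edgeR in either comparison, and its share differed by 8.3 ± 13 points (SD, n = 6; exact p = 0.25) between Notch2 counted and none cells.

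Mfng was high in a few cells. It reached 2203 CPM in a cell of library group 1 and 1718 CPM in a cell of group 5, both Mki67 low and without a Notch2 count, and the next highest cell lay at 155 CPM. In library groups 4 and 6, 0 of 36 cells held any Mfng count. The 4 highest cells were all Notch2 none, a class that held 58.7% of all cells. In all, 3 of 36 Notch2 counted (8.33%, 2.87 to 21.8) and 4 of 64 Notch2 none cells (6.25%, 2.46 to 15) had 5 or more counts. For Mki67 high against low sums its log2 fold change was -3.64 ± 2.56 (SE; edgeR adjusted p = 0.781), and Mfng was too low to be tested between the Notch2 classes.

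Numb and Numbl, the adaptor proteins that counteract Notch receptors, differed from each other in how often they were counted. Numb had 5 or more counts in 7 of 32 Mki67 high (21.9%, 11 to 38.8) and 13 of 75 Mki67 low cells (17.3%, 10.4 to 27.4), and in 8 of 36 Notch2 counted (22.2%, 11.7 to 38.1) and 9 of 64 Notch2 none cells (14.1%, 7.58 to 24.6). Its highest cell, at 1973 CPM, was Mki67 high and Notch2 counted. For Numb the log2 fold change was 0.94 ± 1.89 (SE; edgeR adjusted p = 0.935) between the Mki67 classes and 0.02 ± 1.85 (adjusted p = 1) between the Notch2 classes, and without that cell these were -0.33 and -2.75.

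Numbl was found at 5 or more counts in 53.1% of Mki67 high (36.4 to 69.1) and 60% of Mki67 low cells (48.7 to 70.3), and in 61.1% of Notch2 counted (44.9 to 75.2) and 56.2% of Notch2 none cells (44.1 to 67.7). Its medians per cell were 4.15, 4.91, 5.74 and 4.71 CPM in these 4 classes. Numbl had a log2 fold change of -1.23 ± 1.5 (SE; edgeR adjusted p = 0.889) between the Mki67 classes and 0.08 ± 1.25 (adjusted p = 0.998) between the Notch2 classes. In the Mki67 division the share ran from 66.7 points lower in library group 1 to 22.5 points higher in group 3, so the groups did not share a direction.

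Dner, the neuronal membrane protein, was compared in the same way. It had 5 or more counts in 10 of 32 Mki67 high (31.2%, 18 to 48.6) and 25 of 75 Mki67 low cells (33.3%, 23.7 to 44.6). In the cells that had it, the median was 108 CPM in Mki67 high and 379 CPM in Mki67 low cells. Sums ran from 10 to 465 CPM (median 44.9) in Mki67 high and from 65.9 to 641 CPM (median 221) in Mki67 low cells, and the Mki67 high sum was the lower one in 5 of 6 library groups. The share differed by -5.68 ± 12.1 points (SD, n = 6; exact p = 0.312), and by -39.5 points (exact p = 0.0625) between cells with at least 5 and with no Mki67 counts. In the mean of log2(CPM + 1) these differences were -0.86 and -3.36. Only 18 cells had no Mki67 count. Library group 3 held no such cell and gave no difference, and groups 4 and 5 held a single one each, both with Dner. The exact p of 0.0625 is the smallest that 5 groups allow. Between Mki67 high and low cells, edgeR gave Dner a log2 fold change of -0.99 ± 0.97 (SE; adjusted p = 0.854).

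By Notch2, 10 of 36 counted (27.8%, 15.9 to 44.0) and 22 of 64 none cells (34.4%, 23.9 to 46.6) had 5 or more Dner counts. The 4 highest cells, at 3394, 3139, 2836 and 2017 CPM, all had no Notch2 count, as had 58.7% of all cells. Sums ran from 22.6 to 331 CPM (median 42.7) in Notch2 counted and from 4.21 to 750 CPM (median 263) in Notch2 none cells, and the Notch2 counted sum was the lower one in 5 of 6 library groups. Between the Notch2 classes the log2 fold change was -1.86 ± 1.06 (SE; edgeR adjusted p = 0.903).

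**Figure D4:**
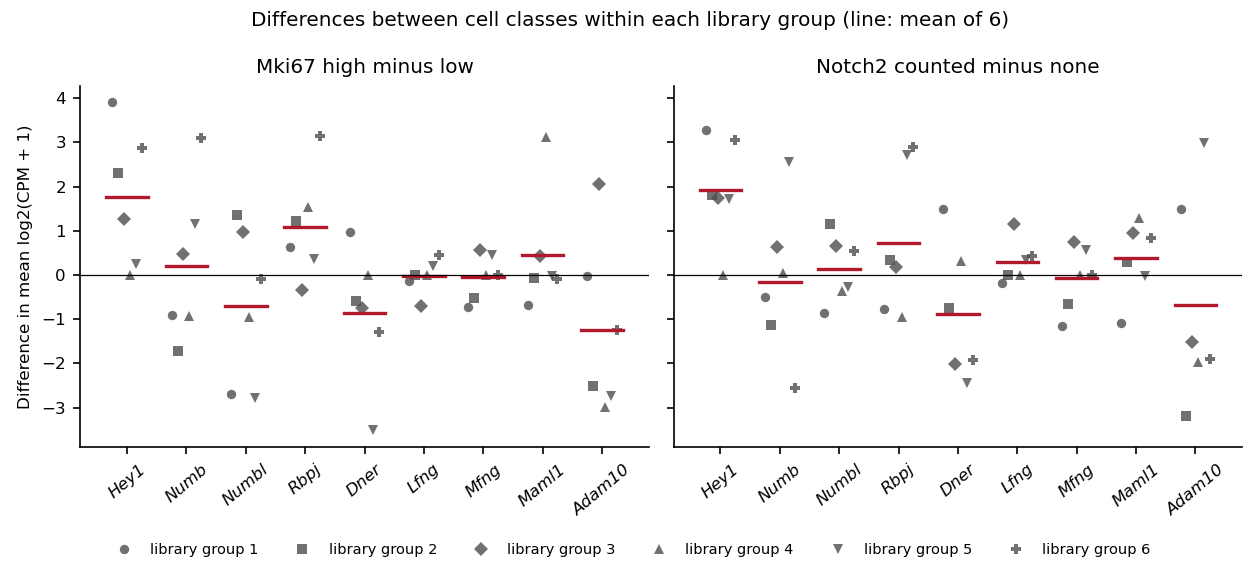
Difference in mean log2(CPM + 1) between the classes in each of the 6 library groups (points, one symbol per library group) and their mean (line), for Mki67 high minus low on the left and Notch2 counted minus none on the right. Hey1 lies above 0 in 5 library groups on both sides, with means of 1.77 and 1.93. It lies at 0 in library group 4, which held no Hey1 count. Each of the other 8 genes has library groups on both sides of 0. Of all genes, 4.48% (Mki67) and 2.2% (Notch2) had a mean at least as far above 0 as Hey1. How many had no library group below 0 was not counted.

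The cells with Hey1 overlapped only partly with those of the other genes. Of the 16 cells with 5 or more Hey1 counts, 12 had 5 or more of Notch2 and 14 of Mki67, which was 33.3% of the 36 cells with Notch2 and 29.8% of the 47 cells with Mki67 at 5 or more counts. Among the 16, 8 also had Rbpj, which was 22.9% of the 35 cells with Rbpj. Across all 109 cells, Spearman's rho of log2(CPM + 1) lay between -0.184 and 0.272 for the 36 pairs of the 9 genes, with the lowest for Mfng and Adam10 and the highest for Hey1 and Mfng. These cells differ in depth and share library groups, and such values in sparse counts are a description. For Adam10 and Numbl, which were counted in most cells, the closest of the 4878 genes searched reached a rho of 0.364 and 0.387, and none reached 0.5.

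Cells with 1 to 4 counts of a gene were unevenly spread over the library groups. In library group 1, whose highest cell had 12948 Hey1 counts, 11 of 19 cells had 1 to 4 Hey1 counts, and in group 2, at 3244, 9 of 18 did. They were fewer in group 6, where 2 of 18 cells had 1 to 4 counts beside a highest cell of 4883, and in group 4, with no Hey1 count, there were 0. Mfng showed 8 of 19 such cells in group 1, beside a cell of 7026 counts, and 0 in groups 4 and 6. Why they occur was not tested, and the shares above rest on 5 or more counts. With 1 count as the limit, the share of Hey1 differed by 16.4 points between the Mki67 classes and by 19.2 points between the Notch2 classes.

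Of 58 other genes of the pathway, 53 were listed, and 0 passed the test in either direction in either comparison. Between Mki67 high and low cells 33 were tested, of which 20 had a log2 fold change above 0 and 13 below, with a median of 0.25. By mean log2(CPM + 1) over cells, where most genes leaned to the same side, 42 of the 53 listed were above 0 and 11 below by Mki67, and 40 above and 13 below by Notch2. Those with the smallest edgeR p were Maml3, a Mastermind coactivator (log2 fold change -5.08, p = 0.011, adjusted p = 0.524), Kdm5a, a histone demethylase of the repressor complex (-2.11, p = 0.0453, adjusted p = 0.674), and Crebbp, a histone acetyltransferase (-2.17, p = 0.0458, adjusted p = 0.674). By share Crebbp went the other way, with 5 or more counts in 75% of Mki67 high and 53.3% of Mki67 low cells. Its share was higher in 6 of 6 library groups, as for 5.02% of all genes. Its mean log2(CPM + 1) difference of 0.14 gave no direction, being higher in 3 and lower in 3 library groups. Between Notch2 counted and none cells 34 were tested, with 17 above 0 and 17 below and a median of 0.08. Those with the smallest edgeR p were Poglut1, a glucosyltransferase of the receptor (3.52, p = 0.0157, adjusted p = 0.901), Dtx3, a ubiquitin ligase of the Deltex family (-4.16, p = 0.019, adjusted p = 0.901), and Furin, which cuts the receptor during its maturation (2.97, p = 0.0898, adjusted p = 0.903).

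Among the other Hes and Hey genes, Hes1 had 5 or more counts in 5 cells, all of them Notch2 counted (13.9% of that class). Its share was higher in Notch2 counted cells in 3 library groups and lower in 0 (exact sign-flip permutation test, p = 0.25). By share, 83.1% of all genes leaned to the same side. Hes5 had 5 or more counts in 4 cells, of which 3 were Notch2 counted and 1 Notch2 none. Hes6, whose response to Notch was not tested here, had them in 23 cells and was named after its values had been seen. It was found in 13 of 36 Notch2 counted (36.1%) and 9 of 64 Notch2 none cells (14.1%), and in 37.5% of Mki67 high and 14.7% of Mki67 low cells. By Notch2, Hes6 was higher in 6 of 6 library groups by share and by mean log2(CPM + 1) (exact sign-flip p = 0.031 in each). So were 4.9% of all genes by share and 4.06% by mean. By edgeR its log2 fold change was 1.44 (adjusted p = 0.95) between the Notch2 classes. Hey2 and Heyl were not listed in the table, so Hey1 was the only gene of its family with values. Of the 16 cells with Hey1, 3 also had Hes1.

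On GRCm38 (GENCODE M21), Hey1 lies on chromosome 3 from 8663359 to 8667256 on the minus strand, and Rbpj on chromosome 5 from 53466152 to 53657362 on the plus strand. Adam10 lies on chromosome 9 from 70678997 to 70780229 on the plus strand and Dner on chromosome 1 from 84369839 to 84696221 on the minus strand. The counts are of reads over the exons of these genes. Exons of Numb, Dner and Maml1 overlap an annotated transcript on the other strand by 166, 77 and 135 bases, and those of Numbl overlap one on the same strand by 85 bases. None of these overlapping genes was listed in the table, and since the strand setting was not given, their reads cannot be told apart from those of the 4 genes.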

How the data were processed

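Single-cell Smart-seq libraries of 109 cells in 6 library groups were analysed. The authors deposited raw read counts per gene and cell, which are not normalized; the submitters' processing notes name STAR 2.4.1d, HTSeq 0.6.1 and the build mm10. Which annotation and strand option were used for counting is not given in the sources used here. Every listed gene had a count in at least 3 cells.

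Counts were converted to CPM by the column total. All cells were kept, and doublets were not searched for. Library groups come from the titles, and their relation to animals or to the study's batches was not stated, so p-values measure only the spread between these sums, which may be technical. Total counts were 15071 to 8616017 per cell and 9376998 to 66286508 per sum. The libraries hold no molecular identifiers, so intervals and limits for a count of 0 (3 counts) cover counting error only.

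Counts summed by class and library group were tested with edgeR 4.0.16 (filterByExpr, TMM, quasi-likelihood, Benjamini-Hochberg over all genes, R 4.3.3), leaving out the gene that defined the classes. Shares of cells with at least 5 counts and means of log2(CPM + 1) were compared by exact two-sided sign-flip tests over library groups. Alternatives were DESeq2 1.42.0 on the sums and its size factors, no filter, the library group as a block, leaving out each group in turn, only sums made of 2 or more cells, calling at 0.05, thinning to 1110182 counts (1 shallower cell kept its counts), leaving out 5 cells with 5 or more of 10 astroglial markers at 50 CPM or 3 cells of unusual depth (under 100000 counts or over 10000 genes), other class limits, 1 count as the limit of detection and log2(CPM + 10). Fits without each gene's highest cell, and of Notch2 in Mki67 high cells only, were added after the values had been seen. No column lacked a sample, and no cells had identical counts. The fits were tested on simulated data. The 9 genes and all lists were chosen with earlier results of these data known. Named were the 9 genes, of 58 other pathway genes those called or otherwise the 3 with the smallest p in each comparison, and, for genes with 5 or more counts in most cells, up to 3 genes with a Spearman rho of at least 0.5 among genes so counted in at least 20% of cells. Other genes were named after their values had been seen.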

Additional observations from a re-analysis of the deposited data

Results flagged for a closer look

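For each gene, the sums of the 6 library groups in a class were examined for a library group far from the others on the log2(CPM + 1) scale, by Dixon's test. Of 36 sets of 6 sums 11 held one, and in most the group stood apart on the high side. The usual rate of about 1 in 20 holds for independent sets of normally distributed values. These sums share cells between the divisions and often rest on 1 cell, so that rate cannot tell whether 11 is an excess.

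Hey1 stood at 53.4 CPM in the Notch2 none sum of library group 5, where the next highest was 0.513 CPM, and 1 cell of that group was at 741 CPM. Maml1 stood at 371 CPM in the Mki67 high sum and 184 CPM in the Notch2 counted sum of library group 4, and at 43.2 CPM in the Notch2 none sum of library group 1, against next highest sums of 1.97, 5.52 and 1.25 CPM. Dner stood at 331 CPM in the Notch2 counted sum of library group 2 (next highest 56.3 CPM). Numbl stood at 93.2 CPM in the Notch2 counted sum of library group 6 (next highest 22.7 CPM).

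Lfng stood at 1.80 CPM in the Mki67 high sum of library group 6, at 4.46 CPM in the Mki67 low sum of library group 3 and at 0.174 CPM in the Notch2 none sum of library group 1. On the low side, Adam10 stood at 4.48 CPM in the Mki67 high sum of library group 2, where the next lowest was 189 CPM. Numb stood at 0 CPM in the Mki67 low sum of library group 3 (next lowest 21.3 CPM).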

How the results depend on the processing

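No alternative called any of the 9 genes that it could fit (7 of 9 had an adjusted p with DESeq2), and Hey1 turned in none. The number of genes called between Mki67 high and low cells, 2, became 6 at an adjusted p under 0.05, 6 with DESeq2 size factors, 376 with DESeq2 on the sums, 1 without astroglial cells, 1 without cells of unusual depth, 1 in thinned cells, 0 for Mki67 of at least 5 counts against none, and 0 to 1 with a library group left out. Between Notch2 classes, 0 became 337 with DESeq2 and stayed 0 otherwise. As a replicate block, the library group gave 0 calls in each, and log2 fold changes of -2.20 (Mki67) and -1.88 (Notch2) for Numb and -1.67 (Mki67) for Maml1. Sums of the same library group deviated together by correlations of 0.0201 to 0.0558 (Mki67) and 0.00278 to 0.0449 (Notch2), all under the 0.1 required here for a pairing, although 4 and 5 of 6 correlated best with their own group, a hint from the data that cells of a group have something in common. The labels do not say what.

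Directions of other genes turned as follows, and the cause was not tested. Between Notch2 classes, the log2 fold change of Numb was -0.097 with DESeq2, -0.086 with its size factors, -0.149 without a filter, -0.104 without cells of unusual depth, -2.13 in Mki67 low cells and -2.75 without its highest cell, and that of Numbl was -0.012 without a filter, -0.219 with 1 Notch2 count as the limit and -0.462 without its highest cell. That of Maml1 was -2.65 without its highest cell (-3.47 for Mki67, where Numb gave -0.332), and that of Adam10 was 0.144 in Mki67 high cells. Share differences, in points, were 2.82 for Numbl and 1.51 for Adam10 with Mki67 of at least 5 counts against none. With 1 count as the limit they were 2.08 for Adam10, -8.39 for Maml1, 16.1 for Mfng and 1.69 for Dner by Mki67, and 6.82 for Dner and 4.08 for Adam10 by Notch2. Without astroglial cells Numb gave -0.675 (Mki67) and -3.25 (Notch2), and without cells of unusual depth Lfng gave -1.98 (Mki67) and Numb -1.60 (Notch2). In thinned cells Numb gave -1.41 (Notch2), and in Mki67 low cells Numb gave -9.42, Dner 3.46 and Maml1 -3.75 (Notch2). Mean log2(CPM + 1) differences were 0.087 for Lfng and 0.086 for Numbl with Mki67 of at least 5 counts against none, 0.019 for Lfng and -0.038 for Numb without astroglial cells (Mki67), -0.008 for Numbl without cells of unusual depth, 0.106 for Numb with 1 Notch2 count as the limit, -0.100 for Maml1 and 0.232 for Dner in Mki67 low cells, and 0.783 for Adam10 in Mki67 high cells (Notch2).

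Leaving out 1 library group turned further directions. By Mki67, log2 fold changes ranged from -3.41 to 6.11 for Maml1 and from -0.509 to 1.53 for Rbpj (both negative without group 4) and from -0.092 to 1.48 for Numb (without group 5). Shares ranged from -3.33 to 1.83 points for Mfng, from -0.872 to 3.63 for Lfng, from -8.59 to 3.58 for Adam10 and from -14.3 to 3.53 for Numbl. Means of log2(CPM + 1) ranged from -0.158 to 0.099 for Mfng, -0.385 to 0.582 for Numb, -0.083 to 0.674 for Maml1 and -0.121 to 0.107 for Lfng. By Notch2, log2 fold changes ranged from -0.399 to 0.495 for Numbl and -2.84 to 1.74 for Numb. Shares ranged from -1.59 to 11.5 points for Numbl, -3.07 to 6.72 for Numb, -12.6 to 3.05 for Adam10 and -0.152 to 6.59 for Mfng, and means of log2(CPM + 1) from -0.704 to 0.320 for Numb, -0.245 to 0.136 for Mfng and -0.058 to 0.343 for Numbl. The share of Rbpj by Mki67 ranged from 15.3 to 26.8 points, with the lowest without group 6, and that of Hey1 from 18 to 26.9 by Mki67 and 27.9 to 38.4 by Notch2.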

Other observations

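The 5 cells with 5 or more astroglial markers held 3 of the 5 cells with Lfng, and 3 of the 16 with Hey1. Their Hey1 levels were 183, 31.9, 22.1, 0 and 0 CPM, and in the same order their Adam10 levels were 424, 499.8, 698, 0.901 and 1470.1 CPM. Of these cells 2, with 12684 and 13533 detected genes, had the most detected genes of all 109 cells.

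One cell of library group 5 with no Notch2 count and 9.27 CPM of Mki67 was among the 6 highest cells for 4 of the 9 genes, with 741 CPM of Hey1, 1718 CPM of Mfng, 252 CPM of Rbpj and 239 CPM of Numb. It lay closest to the upper limit of the Mki67 low class.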
